A study of Mus musculus with 3 samples.

Results

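The genes of 8 solute carrier families that carry amino acids, peptides and related amines were examined in mouse intestine. Members were all rows of the count table whose symbol belongs to family Slc1, Slc3, Slc6, Slc7, Slc15, Slc36, Slc38 or Slc43. The rule matched 69 of 21983 rows. Among them, Slc7a6os encodes no transporter. It was set aside, at 23.2, 52.1 and 30.3 CPM in the PCI34051+NEC, NEC and control libraries, which left 68 transporter genes. Levels are given as CPM, the counts of a gene scaled to a common library size. Of the 68 genes, 51 reached 1 CPM in at least 1 library and 42 reached 5 CPM. The other 17 stayed under 1 CPM throughout, and 5 of them (Slc6a2, Slc6a5, Slc7a12, Slc7a13 and Slc36a3) had 0 counts in every library. The families held 7 (Slc1), 2 (Slc3), 21 (Slc6), 15 (Slc7), 5 (Slc15), 4 (Slc36), 11 (Slc38) and 3 (Slc43) of the 68 genes.

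The study sequenced RNA of intestine from wild-type pups in 3 groups with 1 library each, all taken 96 h into the protocol. The PCI34051+NEC pups went through a model of necrotizing enterocolitis (NEC) and also received PCI34051, a selective inhibitor of the deacetylase HDAC8, by mouth at 10 mg/kg per day over 5 days. The NEC pups went through the model with PBS in place of the inhibitor. The model combined 40 µl of 33% Esbilac formula by gavage each 4 h with hypoxia (99.9% nitrogen, 100 s) and cold (4 °C, 10 min) each 12 h. Control pups stayed with the dam, had neither stress, and were also given PBS. Diet, hypoxia and cold therefore cannot be told apart in any comparison of a model library with the control. Strain, age and sex of the pups and the number of pups behind a library were not stated by the labels. The Y-linked genes Eif2s3y, Ddx3y, Uty and Kdm5d had 0 to 3 counts in the NEC library. They had 345 to 1134 in the PCI34051+NEC and 480 to 999 in the control library. A difference in sex therefore cannot be told apart from the other differences in either comparison with the NEC library, for any gene. With 1 library per group there is no replicate check and no p-value. Each interval is a 95% interval for counting error alone and holds no spread between pups. Reads counted without molecular identifiers need not come from separate molecules, so an interval can be too narrow even for counting error.

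Dietary protein reaches the enterocyte as free amino acids and as di- and tripeptides. Carriers on the apical brush border bring them in, some driven by sodium, some by protons and some by exchange. A different set on the basolateral membrane passes them on to the blood. Several carriers are pairs of a Slc7 light chain, which transports, and a Slc3 heavy chain, which brings it to the membrane. Slc3a1 (rBAT) pairs with Slc7a9 on the apical side, and Slc3a2 (4F2hc) pairs with Slc7a7, Slc7a8 and others on the basolateral side. Genes were grouped by the side that the protein is known to occupy in intestinal epithelium. This gave 10 apical, 8 basolateral, 6 intracellular (mostly lysosomal) and 14 mainly neural genes, and 30 for which no side was assigned.

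The libraries held 16497580 (PCI34051+NEC), 10650638 (NEC) and 15076413 (control) counts. A gene at 0 counts was set against a floor of 3 counts per library, which is 0.197, 0.274 and 0.189 CPM. The NEC library stood apart from the others. Mitochondrially encoded genes took 3.73%, 32.4% and 4.88% of counts in the PCI34051+NEC, NEC and control libraries. All 15 epithelial markers were counted in every library, with a summed level of 13401, 6789 and 11187 CPM. Epcam, the pan-epithelial adhesion gene, was at 2797, 404 and 2731 CPM, the largest fall of this list in NEC against control. The list was mixed in that comparison, with 8 genes past 2-fold below control, 3 past it above and 4 neither. Krt19, an epithelial keratin gene of the list, rose most, at 116.5, 638 and 54.2 CPM. The 10 smooth muscle markers summed to 1545, 12119 and 1615 CPM, and the 12 neuron and glia markers, of which Gfap had 0 counts in the NEC library, to 158, 972 and 171 CPM. The 6 fibroblast markers summed to 719, 2664 and 759.5 CPM and the 8 endothelial markers to 140.1, 261 and 144 CPM. The 8 immune markers summed to 198, 98.0 and 512 CPM. The part of these differences in the results on transporters was not tested. In bulk tissue, fewer cells of a type and less RNA per cell cannot be told apart.

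Levels are TMM-normalised CPM, and where genes are compared with each other they are divided by exon length in kilobases (CPM per kb). Slc6a19, the main sodium-driven carrier of neutral amino acids (B0AT1), led the PCI34051+NEC library at 295.6 CPM per kb, which was 24.7% of the summed level of all 68 genes. In the NEC library the creatine transporter gene Slc6a8 (54.3 CPM per kb) and Slc6a19 (53.9 CPM per kb) led. The control library was led by Slc7a9, the light chain of the apical carrier of cystine and dibasic amino acids, at 205.3 CPM per kb or 20.9% of the sum. The spread between members was wide. In the control library Slc7a1, the cationic carrier CAT1, was at 1.10 CPM per kb, and the cystine carrier light chain Slc7a11 at 0.0136 CPM per kb.

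**Figure D1:**
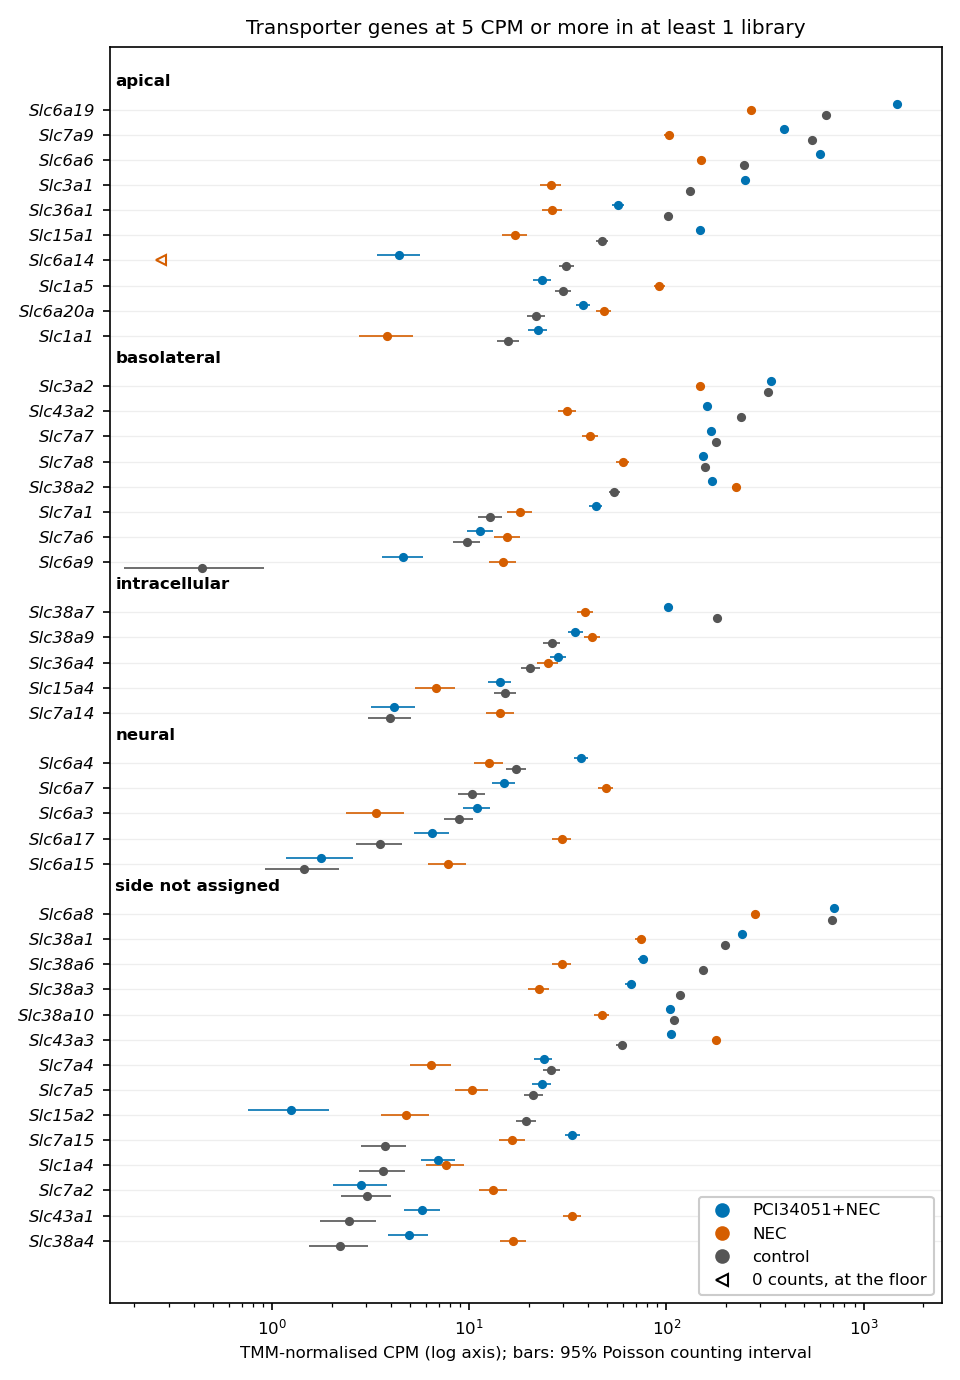
Level of the 42 transporter genes at 5 CPM or more in at least 1 library, by side, on a logarithmic axis of TMM-normalised CPM. Points are single libraries (PCI34051+NEC, NEC, control), bars are 95% Poisson counting intervals, and the open triangle is a gene at 0 counts drawn at the floor. Most apical genes lie lowest in the NEC library, where Slc6a14 had 0 counts, while Slc1a5, Slc38a2, Slc6a7 and Slc43a1 lie highest there.

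The comparison of NEC with control addressed how amino acid uptake genes differ between the model and dam-fed pups. The main brush border carriers were lower in the NEC library, while Slc1a5 and Slc38a2, which carry glutamine and small neutral amino acids, and several low, partly neural members were higher. Of the 51 transporter genes measured (at least 1 CPM in 1 of the 2 libraries), 21 (41.2%) lay 2-fold or more below control and 16 (31.4%) 2-fold or more above it. Among all 14627 genes measured, 47.1% were past 2-fold, 22.9% below control and 24.2% above it. The median log2 difference of the 51 genes, on the log2(CPM + 1) scale, was 0.06, and that of all genes was -0.03. That median depended on the low genes, since with a minimum of 5 CPM it was -1.02 for the transporters and -0.14 for all genes.

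By side, 7 of 10 apical genes were past 2-fold below control and 2 (Slc1a5 and Slc6a20a) past it above, with a median of -1.61. Of 8 basolateral genes, 4 were lower and 2 (Slc38a2 and Slc6a9) higher, with a median of -0.34. Among the 6 intracellular genes 2 were lower and 1 higher. Of the 9 neural genes measured, 5 were higher and 1 lower, with a median of 1.67. By family, the Slc38 genes had 5 of 8 lower and 2 higher, Slc15 3 of 4 lower, Slc7 4 of 12 each way, and Slc6 5 of 13 higher and 4 lower. Slc1 genes had 3 of 7 higher and 1 lower. Both Slc3 heavy chain genes were lower, as was Slc36a1 of the 2 Slc36 genes measured, and of the 3 Slc43 genes 2 were higher and 1 lower. Of absorptive enterocyte markers, 6 of 14 were lower and 1 higher (median -0.84), and of suckling enterocyte markers 10 of 10 were lower (median -2.77). The epithelial marker list itself had a median of -1.04, with single genes between -2.75 (Epcam) and 3.53 (Krt19). Relative to that list's median, the apical median was -0.56 and the basolateral median 0.70.

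**Figure D2:**
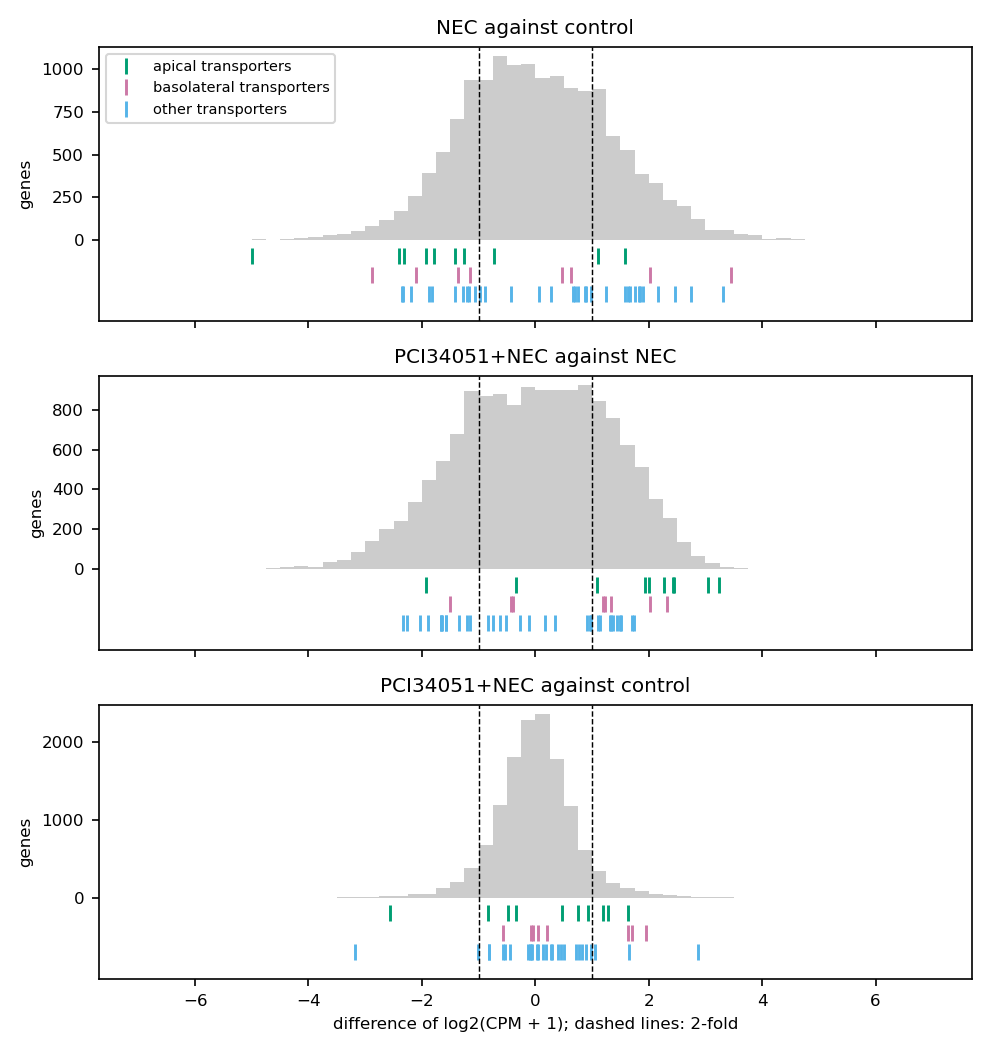
Differences of log2(CPM + 1) in the 3 comparisons for all measured genes (grey, number of genes per bin) with the transporter genes below as ticks, coloured by side. Dashed lines mark 2-fold. In NEC against control 7 of 10 apical ticks lie left of the lower line. In PCI34051+NEC against control 34 of 46 transporter genes lie between the lines.

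Slc7a9 and Slc3a1, the light and heavy chains of the apical carrier of cystine, arginine, lysine and ornithine, were among the genes furthest apart. Slc7a9 (ENSMUSG00000030492, chromosome 7, 35448796 to 35466036, plus strand, mm10) had 394 CPM in the PCI34051+NEC, 102.9 CPM in the NEC and 549 CPM in the control library. Slc3a1 (ENSMUSG00000024131, chromosome 17, 85028376 to 85064236, plus strand) had 251 CPM in the PCI34051+NEC, 25.8 CPM in the NEC and 132 CPM in the control library. The NEC library was the lowest for both subunits, but the order of the others differed, with Slc7a9 higher in the control and Slc3a1 higher in the PCI34051+NEC library. In NEC against control, Slc7a9 was 5.34-fold lower (5.02 to 5.68) and Slc3a1 5.1-fold lower (4.5 to 5.8). In PCI34051+NEC against NEC, Slc7a9 was 3.83-fold higher (3.60 to 4.09) and Slc3a1 9.72-fold higher (8.61 to 11). Of the 75-base stretches of Slc3a1 exons, 24.0% also occur in transcripts of Prepl, on either strand. Prepl was at 23.7, 8.04 and 31.1 CPM in the PCI34051+NEC, NEC and control libraries, and a strand setting of the counting was not given in the sources used here.

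The promoter windows of these subunits and of Slc7a7, their basolateral counterpart for dibasic amino acids, are shown because the 3 genes were lower together in the NEC library. Each runs from 250 bases before to 50 bases after a RefSeq transcription start (build GRCm38.p6), and capitals mark the motif letters searched.
Slc7a9, chr7:35448842-35449141, plus strand, the most upstream of 2 annotated starts: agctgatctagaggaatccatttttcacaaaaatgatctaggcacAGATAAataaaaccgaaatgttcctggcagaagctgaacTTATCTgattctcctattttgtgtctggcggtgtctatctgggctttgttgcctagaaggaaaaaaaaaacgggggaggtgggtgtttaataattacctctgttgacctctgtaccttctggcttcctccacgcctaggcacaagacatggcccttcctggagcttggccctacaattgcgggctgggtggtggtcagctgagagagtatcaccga
Slc3a1, chr17:85028097-85028396, plus strand, single annotated start: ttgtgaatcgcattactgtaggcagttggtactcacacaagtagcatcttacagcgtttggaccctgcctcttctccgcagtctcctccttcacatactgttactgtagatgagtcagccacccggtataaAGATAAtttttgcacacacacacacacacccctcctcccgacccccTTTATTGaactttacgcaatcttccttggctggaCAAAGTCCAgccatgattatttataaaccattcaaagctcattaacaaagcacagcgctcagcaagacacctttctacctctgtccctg
Slc7a7, chr14:54417895-54418194, minus strand, the most upstream of 5 annotated starts: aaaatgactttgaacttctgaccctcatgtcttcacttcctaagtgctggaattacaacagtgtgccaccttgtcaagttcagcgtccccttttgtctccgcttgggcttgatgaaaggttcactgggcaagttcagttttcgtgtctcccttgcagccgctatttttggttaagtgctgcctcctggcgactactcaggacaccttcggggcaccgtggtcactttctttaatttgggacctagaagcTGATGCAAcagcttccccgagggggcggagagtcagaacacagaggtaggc

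The capitals in the Slc7a9 window are the GATA letters AGATAA, once on each strand. Those in the Slc3a1 window are AGATAA, the CDX2 letters TTTATNG and the HNF4 letters CAAAGTCCA. GATA4, CDX2 and HNF4A are transcription factors of the intestinal epithelium. The capitals in the Slc7a7 window are TGATGCAA, an element bound by ATF4, the factor that responds to amino acid shortage. The windows of 2 further starts of Slc7a7 overlap and hold the same AGATAA. Windows were found for 49 of the 68 transporter genes, 70 windows in all. On either strand, AGATAA occurred in 8.57% of these windows and in 11.2% of all 32851 windows, TTTATNG in 2.86% and 10.9%, CAAAGTCCA in 1.43% and 0.475%, and TGATGCAA in 5.71% and 0.895%. An HNF1 consensus of 12 letters occurred in 0% of member windows and in 0.0609% of all windows. A glucocorticoid response element of 13 letters occurred in 1.43% (Slc38a11 alone) and 0.475%. Windows of a gene can overlap, so the same letters can count more than once, as AGATAA and TGATGCAA do for Slc7a7. A match is a description of letters and not a binding site.

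Slc6a19 (ENSMUSG00000021565, chromosome 13, 73679745 to 73704865, minus strand) was at 1479.9 CPM in the PCI34051+NEC, 269.9 CPM in the NEC and 644 CPM in the control library. It was 2.39-fold lower (2.29 to 2.49) in NEC against control and 5.48-fold higher (5.28 to 5.70) in PCI34051+NEC against NEC. Relative to the epithelial list's median its log2 difference was -0.21 in NEC against control, 1.5 in PCI34051+NEC against NEC and 1.01 in PCI34051+NEC against control. Cltrn (collectrin), its partner protein in kidney, was at 1.25, 0.183 and 0.377 CPM in the PCI34051+NEC, NEC and control libraries.

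Slc15a1 (ENSMUSG00000025557, chromosome 14, 121459621 to 121505252, minus strand) encodes PEPT1, the proton-coupled carrier of di- and tripeptides. Its level was 148 CPM in the PCI34051+NEC, 17.0 CPM in the NEC and 47.2 CPM in the control library, so that the model library without inhibitor was lowest and the one with inhibitor highest. In NEC against control it was 2.78-fold lower (2.37 to 3.28), and in PCI34051+NEC against NEC 8.71-fold higher (7.50 to 10.2). Slc36a1, the proton-coupled carrier of proline, glycine and alanine (PAT1), was at 57.0, 26.2 and 102.2 CPM in the PCI34051+NEC, NEC and control libraries. It was 3.90-fold lower (3.44 to 4.44) in NEC against control. Slc1a1, the apical carrier of glutamate and aspartate (EAAT3), was 4.10-fold lower (2.95 to 5.83) there, at 3.84 CPM in NEC and 15.7 CPM in control. Of the 75-base stretches of Slc1a1, 29% also occur in another gene.

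Slc6a14, the apical carrier of neutral and cationic amino acids (ATB0,+), differed most among the apical genes. It lies on the X chromosome (ENSMUSG00000031089, 21714896 to 21742355, plus strand) and had 67 counts in the PCI34051+NEC, 0 in the NEC and 493 in the control library. It was at least 113-fold lower in NEC against control, by the floor of 3 counts in the NEC library. With PCI34051 it was 16.1-fold above that floor, with a lower limit of 12.7-fold against NEC. It was 7.05-fold lower (5.45 to 9.24) with PCI34051 than in control. Beside this X-linked gene, 4 Y-linked genes had 345 to 1134 counts in the PCI34051+NEC library, 0 to 3 in the NEC library and 480 to 999 in the control library, and the part of sex in the result was not tested. The X-linked creatine transporter gene Slc6a8, at 706, 283 and 689 CPM in the PCI34051+NEC, NEC and control libraries, was 2.44-fold lower (2.34 to 2.54) in NEC against control.

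Slc6a6, the taurine transporter gene, was at 601 CPM in the PCI34051+NEC, 149.7 CPM in the NEC and 248 CPM in the control library. Its log2 difference of -0.72 in NEC against control was short of 2-fold. A pair of apical genes stood higher in NEC. Slc1a5 (chromosome 7, 16781340 to 16798274, plus strand), the exchanger of glutamine and small neutral amino acids (ASCT2), was at 23.5 CPM in the PCI34051+NEC, 92.0 CPM in the NEC and 29.9 CPM in the control library. It was 3.08-fold higher (2.76 to 3.44) in NEC against control and 3.92-fold lower (3.47 to 4.44) in PCI34051+NEC against NEC. Slc6a20a, the sodium-driven proline carrier (SIT1), was 2.20-fold higher (1.92 to 2.52) in NEC, at 48.1 CPM against 21.9 CPM in control. Of its 75-base stretches, 23.9% also occur in other genes, 12.9% in its close paralog Slc6a20b, which had 8 counts or fewer in each library, so their counts are uncertain.

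**Figure D3:**
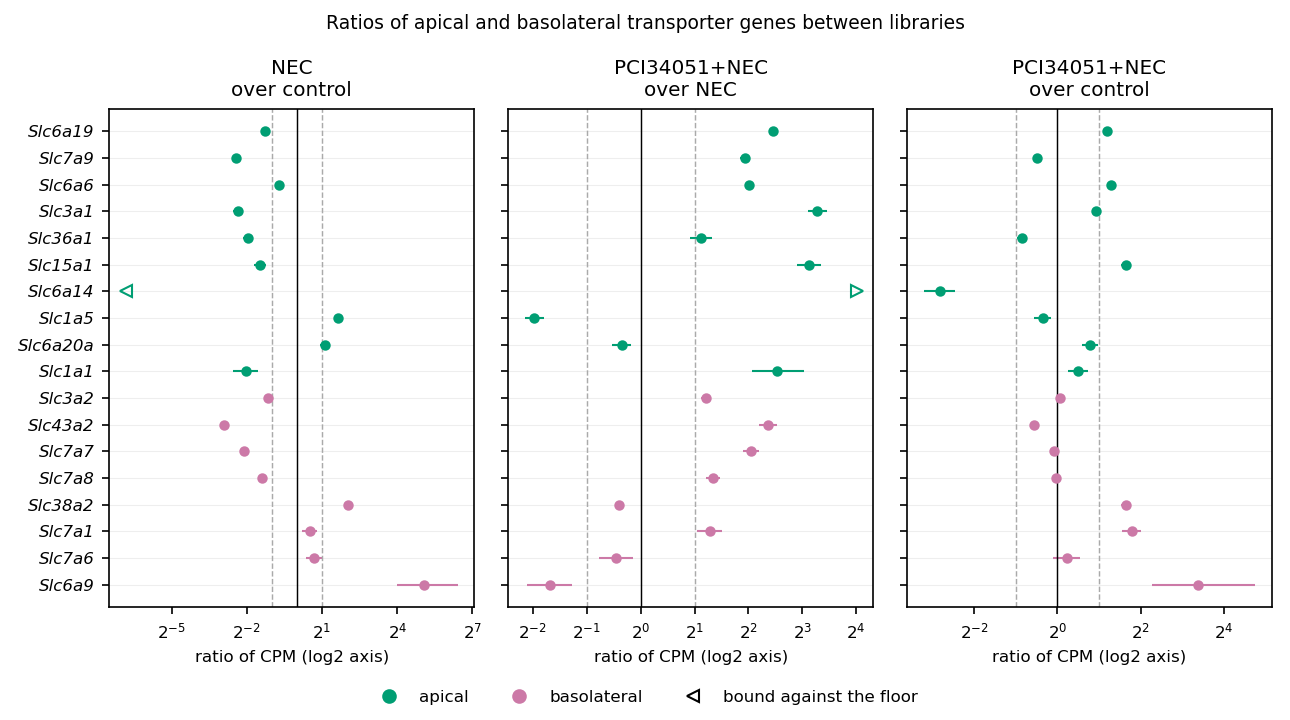
Ratio of CPM between libraries for the 10 apical and 8 basolateral genes on a log2 axis, with 95% counting intervals. Panels from left to right are NEC over control, PCI34051+NEC over NEC, and PCI34051+NEC over control. Open triangles are ratios against the floor for Slc6a14, which had 0 counts in the NEC library, and dashed lines mark 2-fold. Most apical genes lie left of 1 in the first panel, with Slc1a5 and Slc6a20a to the right. The second panel shares the NEC library with the first, and the third shares a library with each.

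On the basolateral side, Slc43a2, Slc7a7, Slc7a8 and Slc3a2 were lower in the NEC library, and Slc38a2 and Slc6a9 were higher. Slc43a2 (ENSMUSG00000038178, chromosome 11, 75531694 to 75577575, plus strand), the uniporter LAT4 for branched-chain amino acids and phenylalanine, was at 161 CPM in the PCI34051+NEC, 31.4 CPM in the NEC and 238 CPM in the control library. It was 7.59-fold lower (6.79 to 8.50) in NEC against control, the largest ratio among the 8 basolateral genes in that direction. Slc7a7, the light chain y+LAT1 that exports arginine and lysine, was at 168 CPM in the PCI34051+NEC, 40.8 CPM in the NEC and 178 CPM in the control library. It was 4.37-fold lower (3.95 to 4.84) in NEC against control. Its neighbour in role, Slc7a8 (the neutral light chain LAT2), was 2.62-fold lower (2.40 to 2.85), at 60.1 CPM in NEC and 157 CPM in control. Their heavy chain gene Slc3a2 was 2.23-fold lower (2.11 to 2.36), at 148 CPM in NEC and 329 CPM in control.

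Slc38a2 (ENSMUSG00000022462, chromosome 15, 96687392 to 96699730, minus strand), the amino acid responsive sodium-driven carrier SNAT2, ran the other way. Its level was 170.1 CPM in the PCI34051+NEC, 224 CPM in the NEC and 54.4 CPM in the control library, higher in both model libraries than in the dam-fed one. It was 4.12-fold higher (3.82 to 4.46) in NEC against control and 3.13-fold higher (2.89 to 3.38) in PCI34051+NEC against control. Slc6a9, the glycine transporter GlyT1, which is also a gene of glia, had 70, 162 and 7 counts in the PCI34051+NEC, NEC and control libraries. It was 33.6-fold higher (15.9 to 84.9) in NEC against control, but 39.3% of its 75-base stretches occur in other genes, mostly Ccdc24. Slc7a1 and Slc7a6, a cationic carrier and the light chain y+LAT2, were 1.42-fold (1.16 to 1.73) and 1.60-fold (1.28 to 2.01) higher, short of 2-fold.

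The Slc38 family of glutamine and small neutral amino acid carriers split in NEC against control. Slc38a7 (lysosomal glutamine and asparagine exporter), Slc38a3 (SNAT3), Slc38a6, Slc38a1 (SNAT1) and Slc38a10 were lower, by log2 differences of -2.19, -2.33, -2.35, -1.41 and -1.20. Slc38a2 and Slc38a4 (SNAT4) were higher, by 2.02 and 2.47. Slc38a9, the lysosomal arginine sensor that signals to mTORC1, differed by 0.66, at 41.8 CPM in NEC and 26.1 CPM in control. In shares of the family's summed CPM per kb, which do not depend on scaling between libraries, Slc38a2 took 19.3% in the PCI34051+NEC, 41.6% in the NEC and 5.03% in the control library. Slc38a7 took 24.7%, 15.3% and 35.5%. The value for Slc38a6 is uncertain, since 61.8% of its 75-base stretches also occur in other genes, Noct above all.

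**Figure D4:**
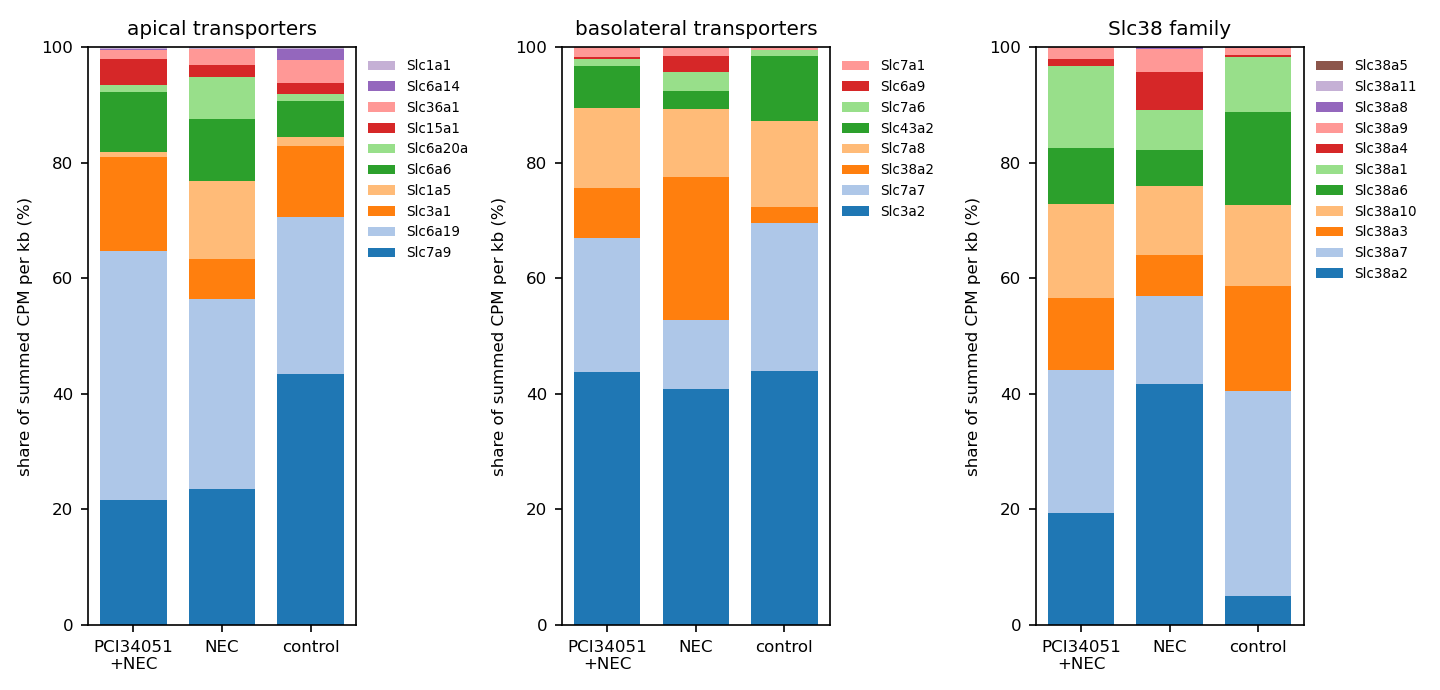
Composition of the apical transporters, the basolateral transporters and the Slc38 family in each library, as stacked shares (%) of the summed CPM per kb of the genes named in each legend, listed in stack order. Libraries are PCI34051+NEC, NEC and control. Slc1a5 takes 13.4% of the apical sum in the NEC library against 1.52% in control, and Slc38a2 takes 24.8% of the basolateral sum against 2.91%.

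Composition within a side also differed. Slc7a9 made up 21.6% of the apical sum in the PCI34051+NEC, 23.5% in the NEC and 43.4% in the control library, and Slc6a19 made up 43.2%, 32.9% and 27.2%. Slc15a1 took 4.43%, 2.12% and 2.05%, and Slc3a1 took 16.2%, 6.94% and 12.3%. The apical sum was 684 CPM per kb in the PCI34051+NEC, 164 in the NEC and 473 in the control library. The basolateral sum was 220.2, 102.5 and 212 CPM per kb. Apical over basolateral was thus 3.11, 1.60 and 2.23 in the PCI34051+NEC, NEC and control libraries, a ratio within each library in which scaling cancels.

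Subunits of the paired carriers did not keep a fixed ratio. Per kilobase, Slc7a9 over Slc3a1 was 1.33 (1.28 to 1.39) in the PCI34051+NEC, 3.38 (2.96 to 3.86) in the NEC and 3.54 (3.37 to 3.71) in the control library. The intervals of the NEC and control libraries overlap, and that of the PCI34051+NEC library lies below both. Slc7a7 over Slc3a2 was 0.526 (0.502 to 0.552), 0.294 (0.265 to 0.327) and 0.578 (0.552 to 0.605) in the PCI34051+NEC, NEC and control libraries, lowest in NEC. Slc7a8 over Slc3a2 lay closer together, at 0.315 (0.300 to 0.331), 0.287 (0.262 to 0.315) and 0.337 (0.321 to 0.354). Among the light chains of Slc3a2, Slc7a6 took 2.75% of the summed CPM per kb in the PCI34051+NEC, 11.1% in the NEC and 2.28% in the control library. Slc7a5, the light chain LAT1, took 6.97%, 9.09% and 6.12%.

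**Figure D5:**
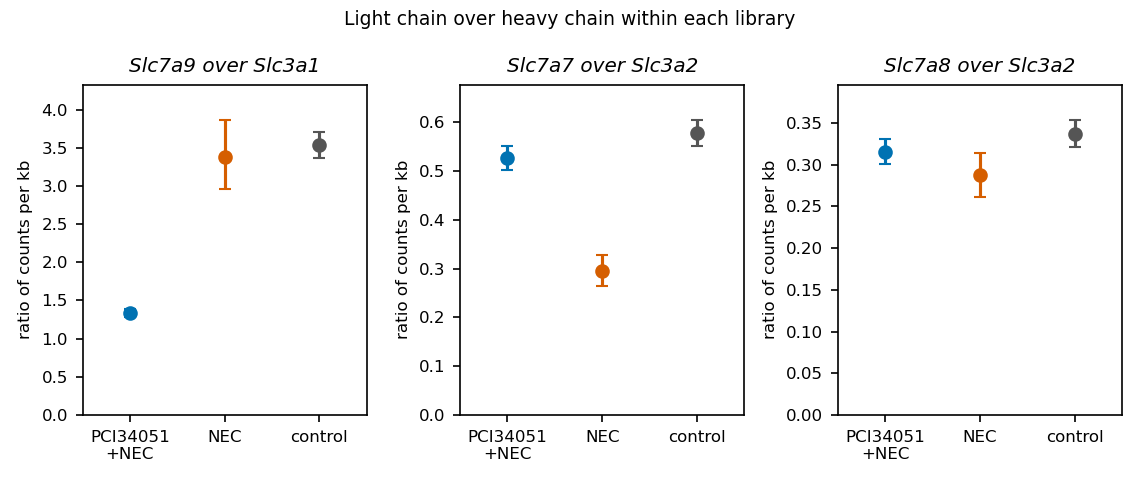
Ratio of counts per kilobase of a light chain gene to its heavy chain gene within each library (Slc7a9 over Slc3a1, Slc7a7 over Slc3a2, Slc7a8 over Slc3a2), with 95% counting intervals. Each axis starts at 0. Slc7a9 over Slc3a1 is lowest in the PCI34051+NEC library at 1.33, and Slc7a7 over Slc3a2 is lowest in the NEC library at 0.294.

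Lysosomal and further carriers gave a mixed picture. The histidine and peptide carrier gene Slc15a4 (PHT1) was at 14.3, 6.76 and 15.2 CPM in the PCI34051+NEC, NEC and control libraries, past 2-fold below control in NEC. Slc7a14, a lysosomal member of the cationic carrier subfamily, was at 4.14, 14.3 and 3.96 CPM, past 2-fold above control in NEC. Slc36a4 (PAT4) was at 28.1, 25.0 and 20.4 CPM and Slc15a3 (PHT2) at 1.25, 2.47 and 2.33 CPM, neither past 2-fold in any comparison. Slc7a4, an orphan of the cationic carrier subfamily, was at 23.8, 6.39 and 26.0 CPM, and Slc7a5 at 23.3, 10.3 and 21.1 CPM. Slc1a4, the exchanger ASCT1, was at 6.96, 7.58 and 3.65 CPM, and the cationic carrier gene Slc7a3 at 2.5, 1.74 and 4.09 CPM. In NEC against control their CPM ratios were past 2-fold, 2.08-fold higher for Slc1a4 and 2.36-fold lower for Slc7a3, but neither passed 2-fold on the log2(CPM + 1) scale in any comparison. The renal carrier gene Slc6a18 (B0AT3) had 60, 18 and 9 counts. On the log2(CPM + 1) scale it passed 2-fold in PCI34051+NEC against control alone, while its CPM ratios were 2.90 in NEC against control, 2.40 in PCI34051+NEC against NEC and 6.96 in PCI34051+NEC against control. Slc6a3, the dopamine transporter gene, was at 10.9, 3.38 and 8.87 CPM and was the only neural member past 2-fold below control in NEC. The 17 genes under 1 CPM had 11 counts or fewer in every library.

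Of the 18 measured members with no assigned side, 6 were past 2-fold higher in NEC against control and 7 lower, with a median of -0.07. Of the 9 neural genes measured, 5 were higher and 1 lower. Among all genes, 24.2% were higher and 22.9% lower. Members that were higher are given here. Slc43a1 (the neutral carrier LAT3) was 13.5-fold higher (9.67 to 19.3), at 33.1 CPM in NEC and 2.45 CPM in control. The purine carrier gene Slc43a3, which was not low in control, was 3.01-fold higher (2.79 to 3.26), at 179 and 59.3 CPM, and the cationic carrier gene Slc7a2 (CAT2) 4.38-fold higher (3.14 to 6.21), at 13.2 and 3.02 CPM. Slc7a11, the cystine-glutamate exchanger, had 20 counts in NEC and 3 in control, a ratio of 9.68 (2.87 to 50.9). Of neural genes, Slc6a17 (a synaptic vesicle carrier) was 8.35-fold higher (6.27 to 11.3), at 29.4 and 3.52 CPM. Slc6a7, the neuronal proline transporter, was 4.8-fold higher (4.02 to 5.75), at 49.2 and 10.3 CPM, and Slc6a15 5.36-fold higher (3.35 to 8.91), at 7.76 and 1.45 CPM. The glial glutamate transporter gene Slc1a2 had 45 counts in NEC and 8 in control. Beside these, 10 of 11 measured neuron and glia markers and 8 of 10 smooth muscle markers were past 2-fold above control in NEC. Their medians were 2.08 and 2.23, and their part in the result was not tested.

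Setting PCI34051+NEC against NEC asked how the inhibitor library differed within the model. Most brush border carriers were higher with PCI34051, while Slc1a5 and Slc43a1 were lower, as were 6 of the 9 neural genes measured, with 2 of them higher. Of 51 genes measured, 23 (45.1%) lay 2-fold or more above NEC and 14 (27.5%) 2-fold or more below it. Among all 14410 genes measured, 50.6% were past 2-fold, 25% above NEC and 25.6% below it. The median log2 difference was 0.90 for the 51 genes and 0.01 for all genes. Of 10 apical genes, 8 were higher and 1 (Slc1a5) lower, with a median of 2.13. Of 8 basolateral genes, 5 were higher and 1 (Slc6a9) lower, with a median of 1.22. Apart from Slc6a14, whose NEC level is a floor, the largest log2 differences upward were 3.23 (Slc3a1), 3.05 (Slc15a1) and 2.45 (Slc6a19), and downward -2.33 (Slc43a1), -2.26 (Slc1a2) and -2.03 (Slc6a17). Markers of several cell types moved as well. Of the measured markers, 10 of 11 for neurons and glia and 10 of 10 for smooth muscle were lower, and 11 of 13 for absorptive and 10 of 10 for suckling enterocytes were higher. Their part in the result was not tested. The epithelial list had a median of 0.95 here, and relative to it the apical median was 1.18 and the basolateral median 0.27. The NEC library serves in this comparison and in the one with control, which ties their values together.

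On the basolateral side, 5 genes were higher with PCI34051. Slc43a2 was 5.13-fold higher (4.58 to 5.76), Slc7a7 4.12-fold higher (3.73 to 4.57), Slc7a8 2.54-fold higher (2.32 to 2.77) and Slc3a2 2.31-fold higher (2.18 to 2.44) than in NEC. Slc7a1 was 2.43-fold higher (2.07 to 2.87), at 43.8 CPM in the PCI34051+NEC and 18.0 CPM in the NEC library. Slc38a2 differed by -0.40 and Slc7a6 by -0.43 on the log2 scale, both short of 2-fold. Slc43a1 was lower, at 5.78 CPM in the PCI34051+NEC and 33.1 CPM in the NEC library, as were Slc7a2 (2.82 and 13.2 CPM) and Slc38a4 (4.93 and 16.7 CPM). Slc6a4, the serotonin transporter gene, which enterocytes also express, was 2.95-fold higher (2.44 to 3.58), at 36.9 and 12.5 CPM.

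The comparison of PCI34051+NEC with control addressed how far the treated model was from dam-fed intestine. Most transporter genes were within 2-fold, and the exceptions were mainly carriers that were higher with PCI34051. Of 46 genes measured, 9 (19.6%) lay 2-fold or more above control and 3 (6.52%) 2-fold or more below it. Among all 13652 genes measured, 13.1% were past 2-fold, 6.55% in each direction. The median log2 difference was 0.19, and 0.00 over all genes. Those higher were Slc15a1, Slc6a6 and Slc6a19 on the apical side, Slc6a9, Slc7a1 and Slc38a2 on the basolateral side, and Slc6a4, Slc6a18 and Slc7a15. Slc6a14, Slc15a2 and Slc38a6 were lower, Slc38a6 with a log2 difference of -1.01 just past the threshold. With total counts as the scale 6 members were lower, beside 9.23% of all genes.

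PEPT1 and B0AT1 genes stood above the control level. Slc15a1 was 3.13-fold higher (2.88 to 3.41), Slc6a6 2.42-fold higher (2.34 to 2.52) and Slc6a19 2.30-fold higher (2.24 to 2.35) than in control. Slc3a1 was 1.90-fold higher (1.81 to 2.01) and Slc7a9 1.39-fold lower (1.35 to 1.44), neither past 2-fold on the log2(CPM + 1) scale. Slc7a1 (CAT1) was 3.44-fold higher (2.94 to 4.05), at 43.8 CPM against 12.7 CPM in control. Slc7a15 (chromosome 12, 8528483 to 8599066, minus strand) had the largest log2 difference upward, 2.86, with 33.2 CPM in the PCI34051+NEC, 16.5 CPM in the NEC and 3.71 CPM in the control library. Its ratio to control was 8.95 (6.83 to 11.9). By ratio alone Slc6a9 was further from control, at 10.4 (4.81 to 26.9), on 70 counts in PCI34051+NEC and 7 in control. Slc15a2 (chromosome 16, 36750177 to 36784962, minus strand), the high-affinity peptide carrier PEPT2, was furthest below, with 1.25 CPM in the PCI34051+NEC, 4.75 CPM in the NEC and 19.4 CPM in the control library. It was 15.5-fold lower (9.77 to 26.1) with PCI34051 than in control, while Slc15a1, the apical peptide carrier gene, was higher. No side was assigned to Slc15a2. Basolateral Slc3a2 (1.04, 0.997 to 1.08), Slc7a8 (0.970, 0.916 to 1.03) and Slc7a7 (0.944, 0.894 to 0.996) had ratios near 1. Of the 10 apical genes, 3 were past 2-fold above control, 1 below it and 6 neither, with a median of 0.61. Absorptive enterocyte markers had 9 of 14 past 2-fold above control, none below it and a median of 1.14. Their part in the result was not tested. The epithelial list had a median of 0.18, the suckling enterocyte list had 2 of 10 genes lower and a median of -0.24, and the summed smooth muscle and neural markers given above differed little between these libraries. The summed immune markers were 198 CPM in PCI34051+NEC and 512 CPM in control.

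Genes that act beside the carriers were taken from lists by role. Brush border peptidases, which cut peptides at the cell surface, had 5 of 10 measured genes past 2-fold below control and 1 above it in NEC, with a median of -1.0, beside 22.9% of all genes below and 24.2% above. In PCI34051+NEC against NEC, 8 of 10 were higher and none lower, with a median of 1.83, beside 25% of all genes higher. Against control, 4 of 10 were higher with PCI34051 and none lower, with a median of 0.83, beside 6.55% of all genes in each direction. Mep1a (meprin alpha) was at 1112, 179 and 1709 CPM in the PCI34051+NEC, NEC and control libraries, and Naaladl1, a brush border peptidase, at 2991, 627 and 3829 CPM. Enpep (glutamyl aminopeptidase) was at 1273, 203 and 531 CPM. Ggt1, a gamma-glutamyl transferase, was the exception in NEC, at 33.0, 48.1 and 8.31 CPM.

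Cytosolic peptidases had 4 of 6 genes lower and none higher in NEC against control (median -1.14), 4 of 6 higher in PCI34051+NEC against NEC (1.48), and none 2-fold apart in PCI34051+NEC against control (0.19). Over all genes, 22.9% were lower in NEC against control, and 25% were higher in PCI34051+NEC against NEC. Pepd, prolidase, which frees proline from dipeptides, was at 190.3, 34.9 and 224 CPM in the PCI34051+NEC, NEC and control libraries. Slc16a10, the basolateral uniporter of aromatic amino acids (TAT1), was at 296, 66.5 and 142 CPM. Genes of the amino acid response, which ATF4 drives in shortage, had medians of -0.02, 0.06 and 0.28 in NEC against control, PCI34051+NEC against NEC, and PCI34051+NEC against control. Of these 10 genes, 2 (Asns and Sesn2) were past 2-fold below control in NEC and none above it, which is near the 22.9% of all genes that were lower. Trib3 was at 20.0, 10.7 and 6.23 CPM, and Sesn2, which senses leucine, at 47.0, 11.6 and 115.5 CPM in the PCI34051+NEC, NEC and control libraries.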

How the data were processed

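The authors deposited raw read counts per gene symbol, 1 column per library, on build mm10 per the submitters' processing notes. RNA was extracted with TRIzol and sequenced as 150 bp paired-end reads, per the labels' protocols. The aligner, its annotation and a strand setting were not given in the sources used here. Overlapping genes and close copies may therefore share counts. The third column's name matched the PCI34051+NEC label only in part (its PCI prefix and +NEC7 suffix), and every PCI34051+NEC value rests on that match. No column was left unused.

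Library sizes were adjusted by TMM from edgeR 4.0.16 under R 4.3.3. Log2 differences used a pseudocount of 1, which understates low genes. Ratios carry 95% intervals from the exact binomial test conditional on the summed count. Genes entered a comparison at 1 CPM in either library and were counted at 2-fold on the log2 scale. Coordinates and exon lengths came from GENCODE M21 (GRCm38), which matched 21926 of 21983 symbols, and promoters from RefSeq. The procedure was run on simulated Poisson counts with folds set in well-counted genes and no spread between pups. That run checked the computation alone, and not low genes or differences between animals. The alternatives tried were total counts, DESeq2 1.42.0 size factors, TMM without mitochondrial genes or without the NEC library, scaling to epithelial markers, pseudocounts of 0.25 and 4, other minimums, a 1.5-fold threshold and removal of GC and length trends.

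Members at 5 CPM or more were named in order of side and role. The members, sides and gene lists were chosen with earlier results of these data known. A few listed genes are not reported here.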

Additional observations from a re-analysis of the deposited data

How the results depend on the processing

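No paired analysis was possible because each group has 1 library. For the same reason every value describes libraries, and the NEC library, the shallowest, limits the low genes most. With DESeq2 size factors, TMM without mitochondrially encoded genes, TMM without the NEC library and removal of the GC content and length trend, no count of members past 2-fold moved by over 1.5 times. Single genes were less stable. With the trend removed, 19 of the 42 members at 5 CPM or more left their counting interval in NEC against control. In PCI34051+NEC against NEC 15 did, and in PCI34051+NEC against control 12. Total counts moved 1, 12 and 18 of them in these comparisons. The median of all measured members in NEC against control, near 0 at 0.06, was -0.12 with the trend removed. Of the members at 5 CPM or more, none past 2-fold changed direction under another scaling, another pseudocount or removal of the trend. Some came close to no difference on the epithelial scale, such as Slc15a4 (-0.02) and Slc3a2 (-0.11) in NEC against control. Members under 5 CPM were not followed singly.

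Scaling to the median of the epithelial markers moved most values. In NEC against control it gave 26 of 51 members higher and 8 lower, with medians of 1.10 (all members), -0.56 (apical) and 0.70 (basolateral). Among all genes measured it gave 50.5% higher and 5.10% lower. In PCI34051+NEC against NEC it gave 8 of 51 members higher and 23 lower, with medians of -0.049, 1.18 and 0.27. Among all genes it gave 6.63% higher and 48.5% lower there. In PCI34051+NEC against control it gave 5 of 46 members lower, beside 9.84% of all genes. It moved the median of all genes to 1.02, -0.95 and -0.18 in these comparisons. Total counts moved it to -0.14 in PCI34051+NEC against NEC and -0.18 in PCI34051+NEC against control. There they gave 6 members lower, beside 9.23% of all genes, and a basolateral median of -0.06, against 0.13 with TMM. A minimum of 5 CPM gave a median of -1.02 in NEC against control. In PCI34051+NEC against NEC it gave 9 members lower, beside 23.9% of all genes. A pseudocount of 4 gave 9 members lower, beside 15.8% of all genes, and an apical median of 1.82 in PCI34051+NEC against NEC. No filter gave a median of 0.092 there. At 1.5-fold, 16 of 46 members were higher and 6 lower in PCI34051+NEC against control, beside 16.0% and 16.6% of all genes. Adding Slc7a6os, chosen after seeing the data, gave medians of 0.17, 0.63 and 0.18.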

Other observations

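Genes that mark the position along the gut were counted alongside the carriers, whose levels are known to differ by segment. Gata4, a factor of the proximal small intestine, was at 46.4 CPM in the PCI34051+NEC, 8.95 CPM in the NEC and 3.21 CPM in the control library. Other genes of the proximal list did not share this order, since Slc40a1, the iron exporter gene, was at 578, 53.1 and 997 CPM and Cybrd1, a ferric reductase gene, at 13.1, 5.84 and 9.0 CPM, and Onecut2 had 10, 13 and 6 counts. The ileal bile acid carrier gene Slc10a2 was at 6.18, 1.83 and 0.252 CPM, and the ileal bile acid binding gene Fabp6 at 30.5, 38.9 and 23.8 CPM. The colon markers Hoxb13, Hoxd13 and Car1 had 0 counts in every library, as did Pdx1, a duodenal factor. The labels name the tissue only as intestine, and the part of the sampled segment in the differences between carriers was not tested.

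Markers of organs next to the gut differed in level. Of 7 exocrine pancreas genes, Cela2a, Pnlip, Prss2 and Amy2a5 had 0 counts in every library, and the list summed to 6.18, 3.65 and 8.31 CPM in the PCI34051+NEC, NEC and control libraries. The 6 liver genes summed to 19.1, 145.6 and 34.3 CPM, and 5 of them were past 2-fold above control in NEC, with a median of 1.91, beside 24.2% of all genes above control.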
